A study of Homo sapiens with 12 samples.

Results

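The ADAMTS genes encode secreted zinc metalloproteases, here measured as mRNA in breast cancer cells held in synthetic hydrogels. The 10 members described are ADAMTS1, ADAMTS3, ADAMTS6, ADAMTS7, ADAMTS9, ADAMTS12, ADAMTS14, ADAMTS15, ADAMTS16 and ADAMTS17. They were given by name, and each was found as a row of the gene count table. They are 10 of the 19 ADAMTS genes in that table and of 23368 gene symbols in all.

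ADAMTS proteases are made as inactive precursors whose propeptide is removed by proprotein convertases such as furin, and thrombospondin type repeats next to the catalytic part help them bind the extracellular matrix. They fall into clades by what they cleave, including large proteoglycans such as versican and aggrecan, the amino-terminal propeptides of fibrillar procollagens, and cartilage oligomeric matrix protein. Tissue inhibitors of metalloproteinases, with TIMP3 the best known for this family, restrain them, and the cell-surface receptor LRP1 clears several of them.

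MDA-MB-231 is an estrogen receptor negative, mesenchymal line and T47D an estrogen receptor positive, luminal line, both grown from pleural effusions. Cells of each line were encapsulated in cell-degradable PEG hydrogels that carried either GFOGER, a peptide that mimics collagen, or IKVAV, a peptide that mimics laminin. RNA was collected on day 3, from gels dissolved with collagenase, and each sample pooled 3 gels. The comparisons ask how the peptide changes expression in each line and how the lines differ. Counts were analysed for 11 libraries, namely 3 of MDA-MB-231 in GFOGER, 2 of MDA-MB-231 in IKVAV, 3 of T47D in GFOGER and 3 of T47D in IKVAV. MDA-MB-231 IKVAV replicate 3, which the authors set aside as an outlier, was not analysed here. Each line is a single line grown without stroma, so the results are those of these lines. The sources used here do not say whether the samples of a group came from separate cultures, so the p-values measure the spread between these samples, which may be technical.

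Total counts ran from 14338238 to 18452145 a library, so that 3 counts, the limit that a count of 0 allows, corresponded to 0.163 to 0.209 CPM (counts scaled to library size). No libraries held the same values. MDA-MB-231 GFOGER replicate 3 and T47D IKVAV replicate 3 stood apart from the others of their groups, with a chi-square per gene of 16.4 to 18.6 against them, where the other pairs of the series gave 2.51 to 9.92. The members called in MDA-MB-231 and in T47D were the same without them, 5 and 0. All 4 MDA-MB-231 markers (VIM, CD44, ZEB1 and CAV1) were higher in MDA-MB-231 and all 6 T47D markers (ESR1, CDH1, GATA3, KRT19, PGR and EPCAM) were higher in T47D, so the lines matched their labels. The 9 stromal and blood cell markers summed to between 27.2 and 63.9 CPM in the 11 libraries. In T47D COL1A1 made up most of this sum, at 56.4 to 63.1 CPM in GFOGER and 53.1 to 61.55 in IKVAV. In MDA-MB-231 the highest were COL1A1 (means of 11.4 and 16.5 CPM) and PECAM1 (8.88 and 14.4).

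Promoter sequence from RefSeq (build GRCh38.p14) was at hand for 6 of the 10 members, and entries for ADAMTS1, ADAMTS9, ADAMTS15 and ADAMTS16 were not. The 250 bases before the start site are shown, 5′ to 3′ on the strand of the gene, for the 3 of these 6 whose mRNA differed more than 2-fold between the peptides in MDA-MB-231, so that genes that fell and a gene that rose can be set side by side. Capitals mark matches on either strand to any of 6 motifs, namely the TATA box TATAAA, the CCAAT box CCAAT, the GC box GGGCGG, the E-box CACGTG, the AP-1 site TGANTCA and the TEAD site GGAATG. ADAMTS14 (chr10:70672256-70672505, plus strand) and ADAMTS7 (chr15:78811465-78811714, minus strand) fell in GFOGER, and ADAMTS6 (chr5:65481921-65482170, minus strand) rose.
ADAMTS14: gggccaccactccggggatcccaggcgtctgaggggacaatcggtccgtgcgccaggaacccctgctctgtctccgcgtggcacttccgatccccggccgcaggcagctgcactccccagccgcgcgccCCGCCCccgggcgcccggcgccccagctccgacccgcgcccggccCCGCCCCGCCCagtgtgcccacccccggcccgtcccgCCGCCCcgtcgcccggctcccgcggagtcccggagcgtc
ADAMTS7: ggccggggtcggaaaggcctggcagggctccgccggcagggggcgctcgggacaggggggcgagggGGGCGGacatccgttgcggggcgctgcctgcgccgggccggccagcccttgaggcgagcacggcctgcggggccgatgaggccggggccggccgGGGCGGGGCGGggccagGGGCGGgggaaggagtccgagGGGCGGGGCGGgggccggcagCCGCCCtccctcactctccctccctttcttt
ADAMTS6: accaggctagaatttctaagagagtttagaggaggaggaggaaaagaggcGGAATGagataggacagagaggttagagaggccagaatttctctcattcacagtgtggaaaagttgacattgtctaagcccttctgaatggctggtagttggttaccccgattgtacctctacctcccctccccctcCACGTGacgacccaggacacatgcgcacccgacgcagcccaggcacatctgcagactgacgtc

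The windows of ADAMTS14 and ADAMTS7 held 4 and 7 GC boxes and none of the other 5 motifs, and their G and C content was 80.4% and 80.8%. The window of ADAMTS6 held no GC box, 1 TEAD site at 200 bases and 1 E-box at 63 bases before the start, and its G and C content was 52.4%. No base of these windows lay in matches to more than 1 motif. Among all 35116 windows of this length, a GC box was found in 42.6%, a TEAD site in 11.9%, an E-box in 6.3%, a CCAAT box in 32.0%, an AP-1 site in 6.6% and a TATA box in 10.7%, and the median G and C content was 58.0%. Of the other 3 members with an entry, ADAMTS12 held a GC box, an AP-1 site and a TEAD site, ADAMTS3 held a GC box, and ADAMTS17 held a CCAAT box, a GC box and an E-box. These are matches of letters and were not tested as binding sites.

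Levels are given as RPKM, which is CPM divided by gene length in kilobases, recomputed from the counts with TMM-normalized library sizes. The family stood higher in sum in MDA-MB-231 than in T47D, and its leading members differed between the conditions. The 19 genes summed to 66.5 ± 2.21 in MDA-MB-231 in GFOGER (SD, n = 3), 56.3 ± 3.37 in MDA-MB-231 in IKVAV (n = 2), 11.3 ± 0.891 in T47D in GFOGER (n = 3) and 10.4 ± 0.877 in T47D in IKVAV (n = 3). The 10 members made up 66.4 of the 66.5 in MDA-MB-231 in GFOGER and 56.1 of the 56.3 in IKVAV, against 8.59 of the 11.3 and 7.63 of the 10.4 in T47D.

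In MDA-MB-231 in GFOGER the highest mean levels were those of ADAMTS9 (17.7, 26.5% of the family sum), ADAMTS15 (17.2), ADAMTS12 (13.5) and ADAMTS1 (9.34), followed by ADAMTS16 at 4.43. The libraries of ADAMTS9 and ADAMTS15 overlapped, as did those of neighbours among the 4 lowest members, ADAMTS17, ADAMTS6, ADAMTS7 and ADAMTS3, while each of the other neighbouring pairs was separate. In IKVAV the order was ADAMTS15 (21.0, 37.4% of the sum), ADAMTS9 (12.5), ADAMTS14 (8.08) and ADAMTS12 (7.47), and ADAMTS1, at rank 4 in GFOGER, was at rank 7 with 1.58. Of the neighbours there, ADAMTS16 overlapped with ADAMTS7, and ADAMTS7 with ADAMTS1.

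In T47D ADAMTS15 made up most of the family sum, 61.9% in GFOGER and 58.3% in IKVAV. ADAMTS7 was the next member at 9.04% and 8.40%, and each of the other 8 members stayed below 3%. Outside the members, ADAMTS13 stood above ADAMTS7, at 10.9% and 15.3%. ADAMTS4 held 5.79% and 3.01%, and ADAMTS10 3.8% and 3.9%. ADAMTS13 overlaps REXO4 by 3706 bases, and how far reads were shared was not measured. The T47D libraries of ADAMTS15, ADAMTS7 and ADAMTS6 followed each other in this order without overlap in both peptides.

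**Figure D1:**
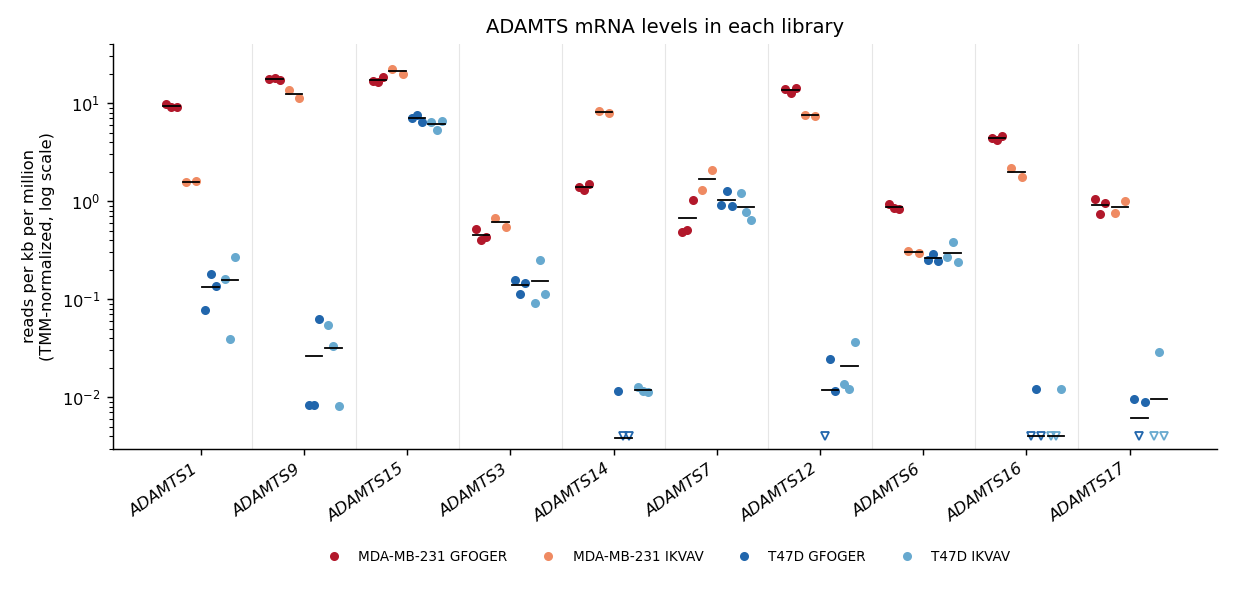
Level of each member in each of the 11 libraries, in TMM-normalized RPKM on a log axis, with points for libraries, bars for group means and open triangles at the bottom for libraries with 0 reads. ADAMTS14 and ADAMTS1 show opposite steps between the MDA-MB-231 groups, and 5 members lie near the bottom in all T47D libraries.

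**Figure D2:**
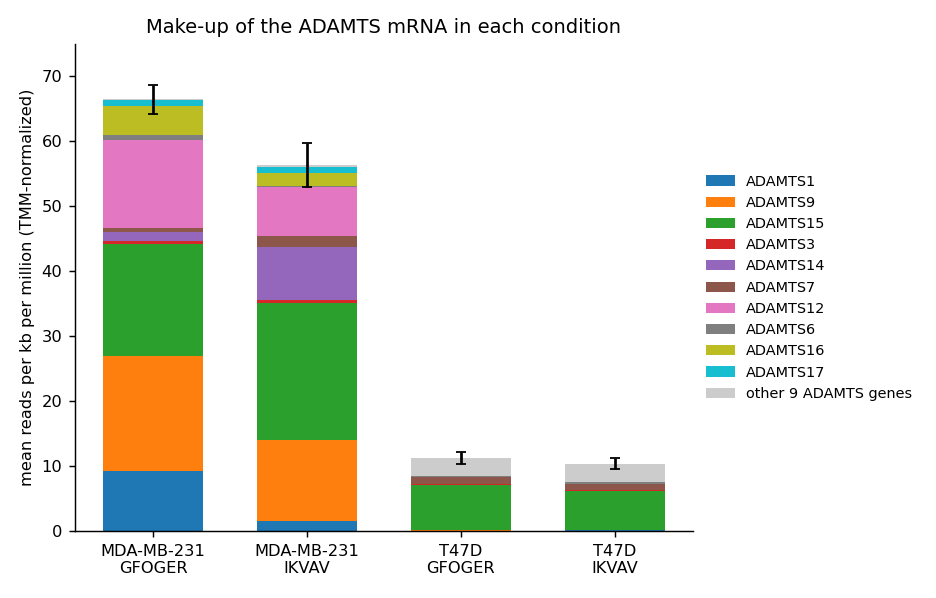
Mean level of each member and of the other 9 ADAMTS genes stacked for each condition, in TMM-normalized RPKM, with the SD of the family sum over libraries as the error bar. The sum is 66.5 and 56.3 in MDA-MB-231 and 11.3 and 10.4 in T47D, where ADAMTS15 makes up most of the bar.

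GFOGER was then compared with IKVAV in MDA-MB-231. ADAMTS1, ADAMTS6 and ADAMTS16 rose in GFOGER and ADAMTS14 and ADAMTS7 fell, so that 5 of the 10 members passed an adjusted p of 0.05 with a change of more than 2-fold. Across all 14092 genes tested, 9.57% were called (3.12% higher and 6.46% lower). At any fold, 8 of the 10 members passed the adjusted p, against 42.9% of all genes. The libraries of the peptides did not overlap for 9 of the 10 members and for 63% of all genes. The members' median log2 fold change was 0.27, where that of all genes was 0.00, and their median absolute value was 1.00 where that of all genes was 0.34.

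Among the proteases that cleave versican and related proteoglycans, ADAMTS1 (chr21:28208606-28217728 in hg19) stood at 9.67, 9.13 and 9.22 in the GFOGER libraries and at 1.58 and 1.59 in the IKVAV libraries, from 684 to 785 reads and from 114 and 123 reads. The groups were far apart and the replicates close together. The change was 5.85-fold (log2 fold change 2.55, SE 0.14, edgeR quasi-likelihood test, adjusted p = 8.5e-10). ADAMTS9 (chr3:64501331-64673365), which is also needed for the formation of primary cilia, stood at 17.7, 18.1 and 17.1 in GFOGER and at 13.6 and 11.3 in IKVAV. All 3 GFOGER libraries were higher, by 1.41-fold (log2 0.49, SE 0.104, adjusted p = 0.00114), short of the 2-fold limit. ADAMTS15 (chr11:130318869-130346539) stood at 16.9, 16.3 and 18.4 in GFOGER and at 22.1 and 19.9 in IKVAV. It was lower in GFOGER by 1.23-fold (log2 -0.30, SE 0.1, adjusted p = 0.0236), so the 3 members of this clade did not share a direction. Over 13 alternative analyses ADAMTS9 ranged from 0.365 to 0.642 and ADAMTS15 from -0.371 to -0.219. The signs held, but neither gene passed the adjusted p in all of them.

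ADAMTS9 overlaps its antisense gene ADAMTS9-AS2 by 2820 bases, and the strand setting of the counting is not given in the sources used here. The antisense gene had at most 37 reads in any library, against 1371 to 2261 for ADAMTS9 in MDA-MB-231.

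Among the procollagen N-propeptidases, which trim fibrillar procollagens, ADAMTS14 (chr10:72432559-72522195) stood at 1.39, 1.28 and 1.49 in GFOGER and at 8.32 and 7.85 in IKVAV. This was a 5.85-fold fall in GFOGER (log2 -2.55, SE 0.136, adjusted p = 6.34e-10), the same size as the rise of ADAMTS1. ADAMTS3 (chr4:73146686-73434516), which also activates the lymphangiogenic factor VEGFC together with CCBE1, stood at 0.522, 0.405 and 0.432 in GFOGER and at 0.674 and 0.547 in IKVAV, and its difference missed the threshold (log2 -0.44, SE 0.268, adjusted p = 0.202, with 2 SE reaching from -0.97 to 0.10).

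Of the pair that cleaves cartilage oligomeric matrix protein, ADAMTS12 (chr5:33527287-33892124) stood at 13.9, 12.5 and 14.1 in GFOGER and at 7.52 and 7.41 in IKVAV. It was higher in GFOGER by 1.80-fold (log2 0.84, SE 0.113, adjusted p = 1.85e-05), short of the 2-fold limit. ADAMTS7 (chr15:79051545-79103773) went the other way, at 0.480, 0.509 and 1.02 in GFOGER and at 1.31 and 2.06 in IKVAV. It fell by 2.52-fold (log2 -1.34, SE 0.284, adjusted p = 0.00125), with a wide spread in both groups, and MDA-MB-231 GFOGER replicate 3 had 100 reads where the others had 45 and 46. Without IKVAV replicate 2 the log2 fold change was -0.97 with an adjusted p of 0.0557, so this call rested on that library, and without GFOGER replicate 3 the call held. ADAMTS7 has pseudogene copies on chromosome 15 (ADAMTS7P1, ADAMTS7P3 and ADAMTS7P4), and how far reads were shared with them was not measured.

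Of the remaining members, ADAMTS6 (chr5:64444563-64777704), a regulator of fibrillin microfibrils, stood at 0.930, 0.854 and 0.831 in GFOGER and at 0.310 and 0.298 in IKVAV, a 2.84-fold rise (log2 1.51, SE 0.236, adjusted p = 9e-05). ADAMTS16 (chr5:5140443-5320412), which cleaves fibronectin, stood at 4.42, 4.21 and 4.66 in GFOGER and at 2.19 and 1.76 in IKVAV, a 2.23-fold rise (log2 1.16, SE 0.153, adjusted p = 1.76e-05). Neither gene's groups overlapped. ADAMTS17 (chr15:100511643-100882183), whose loss causes a Weill-Marchesani-like syndrome, stood at 1.04, 0.735 and 0.962 in GFOGER and at 0.762 and 0.996 in IKVAV, with overlapping libraries (log2 0.04, SE 0.221, adjusted p = 0.894, with 2 SE reaching from -0.40 to 0.49).

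In these cultures, which were measured in bulk, fewer expressing cells and less mRNA per cell cannot be told apart. Some markers of other cells moved with the peptide in MDA-MB-231, where LUM, PDGFRB and COL1A2 of the 9 stromal and blood cell markers fell in GFOGER (log2 -1.14, -1.29 and -1.12). COL1A1 and PECAM1 were lower by less than 2-fold (-0.54 and -0.70, edgeR adjusted p = 0.0145 and 0.00174). PDGFRA, DCN, CDH5 and PTPRC had too few reads to be tested. The summed level of the 9 was 27.2 to 32.5 CPM in GFOGER and 49.0 to 52.6 in IKVAV. CDH5 and DCN were at 0 in both IKVAV libraries and had at most 1 read in any GFOGER library. The 4 MDA-MB-231 markers summed to 4850 to 5046 CPM in GFOGER and to 3604 to 3684 in IKVAV. Of these VIM, CD44 and CAV1 were higher in GFOGER by less than 2-fold (log2 0.67, 0.25 and 0.54) and ZEB1 was lower (-0.40, adjusted p = 0.00246). The part of either list in the ADAMTS differences was not tested.

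In T47D 0 members were called between the peptides, by edgeR and by DESeq2 alike. Of the 10 members 5 had enough reads to be tested, and 0 of these had an unadjusted p under 0.05 in edgeR, where 0.022% of 13642 genes were called and 0.044% passed the adjusted p at any fold. ADAMTS15 stood at 6.97, 7.55 and 6.43 in GFOGER and at 6.35, 5.28 and 6.58 in IKVAV (log2 0.19, SE 0.108, adjusted p = 0.549, with 2 SE reaching from -0.03 to 0.40). ADAMTS7 stood at 0.915, 1.26 and 0.885 in GFOGER and at 1.20, 0.781 and 0.646 in IKVAV (log2 0.21, SE 0.241, adjusted p = 0.796, with 2 SE reaching from -0.27 to 0.69). The libraries of the peptides overlapped for all 5 members tested, where 16% of all genes did not overlap. For ADAMTS15 and ADAMTS7 the intervals stayed within a 2-fold change.

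For ADAMTS6 the T47D values were 0.250, 0.291 and 0.244 in GFOGER and 0.268, 0.382 and 0.240 in IKVAV (log2 -0.20, SE 0.27, adjusted p = 0.835). ADAMTS1 had 6 to 14 reads in GFOGER and 3 to 21 in IKVAV (log2 -0.26, SE 0.552, adjusted p = 0.905, with 2 SE reaching from -1.36 to 0.85), and ADAMTS3 had 11 to 15 and 8 to 24 (log2 -0.15, SE 0.421, adjusted p = 0.93). For ADAMTS1 the interval held a 2-fold fall, which these libraries therefore do not exclude. The other 5 members were near the limit of counting in all 6 T47D libraries, with 21 reads in all for ADAMTS9, 8 for ADAMTS12, 5 for ADAMTS17, 4 for ADAMTS14 and 2 for ADAMTS16.

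**Figure D3:**
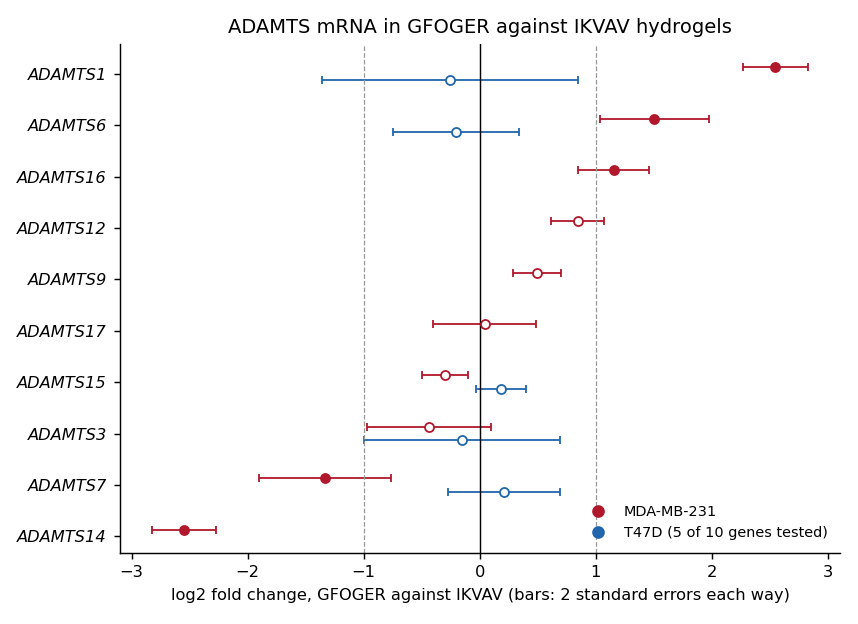
Log2 fold change of each member in GFOGER against IKVAV, for MDA-MB-231 and for the 5 members tested in T47D, with bars of 2 standard errors each way, filled points for called genes and dashed lines at 2-fold. ADAMTS1 and ADAMTS14 lie at 2.55 and -2.55 in MDA-MB-231, and all T47D bars cross 0.

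Whether the peptide effect differed between the lines was tested by an interaction term over the 4 conditions, among the 5 members tested in both. It differed for ADAMTS1 (interaction log2 2.82, SE 0.508, adjusted p = 0.000646), ADAMTS6 (1.72, SE 0.354, adjusted p = 0.00199) and ADAMTS7 (-1.54, SE 0.421, adjusted p = 0.0137), all past 2-fold, where 6.42% of 15320 genes were called. ADAMTS15 passed the adjusted p with less than 2-fold (-0.48, SE 0.15, adjusted p = 0.0285). For ADAMTS3 the interaction was -0.28 (SE 0.506, adjusted p = 0.746). Without T47D IKVAV replicate 3, which stood apart from its group, the ADAMTS1 interaction was 2.13 (adjusted p = 0.0125). Without MDA-MB-231 IKVAV replicate 2 the ADAMTS7 interaction was -1.19 with an adjusted p of 0.107. For the 5 members with almost no T47D reads the peptide effect in T47D could not be measured, so no interaction is given.

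The lines were also compared over both peptides. Of the 10 members 8 were called higher in MDA-MB-231 and 0 lower, against 23.7% and 22.6% of 15320 genes (46.3% in either direction). ADAMTS9, ADAMTS12, ADAMTS14, ADAMTS16 and ADAMTS17, 5 of these 8, passed the filter on low counts only through MDA-MB-231, which fixed their direction, so the count is not read against those shares. Of the other 9 ADAMTS genes 5 were tested, and ADAMTS4, ADAMTS10, ADAMTS13, ADAMTS19 and ADAMTS20 were called lower. All of these but ADAMTS13 had at most 1 read in any MDA-MB-231 library and passed the filter only through T47D, which likewise fixed their direction. No direction of the family is read from either count.

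For the 5 members at the limit of counting in T47D the reads themselves are compared, as the ratio of summed reads per normalized library size with a 95% interval for counting error only. The sums pool both peptides, with 3 GFOGER and 2 IKVAV libraries in MDA-MB-231. The peptides are therefore not weighted equally where a gene changed between them, such as ADAMTS14. ADAMTS9 had 9556 reads in 5 MDA-MB-231 libraries and 21 in 6 T47D libraries, a ratio of 537 (351 to 868). ADAMTS12 had 4640 and 8 reads, a ratio of 684 (347 to 1590). ADAMTS14 had 1746 and 4 reads, a ratio of 515 (201 to 1890). The widest interval was that of ADAMTS16, with 1451 and 2 reads and a ratio of 856 (237 to 7070), and ADAMTS17 gave 479 and 5 reads and a ratio of 113 (48.1 to 350).

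The other 5 members could be fitted in both lines. ADAMTS1 was higher in MDA-MB-231 by 26.7-fold (log2 4.74, SE 0.203, adjusted p = 1.19e-14), ADAMTS3 by 3.61-fold (log2 1.85, SE 0.244, adjusted p = 6.66e-07) and ADAMTS15 by 2.95-fold (log2 1.56, SE 0.0749, adjusted p = 7.94e-14). ADAMTS6 was higher by 1.86-fold (log2 0.89, SE 0.177, adjusted p = 0.000107), and by 1.01 on the log2 scale, past the 2-fold limit, without T47D IKVAV replicate 2. ADAMTS7 differed by 0.19 (SE 0.212, adjusted p = 0.409).

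For ADAMTS1, ADAMTS6 and ADAMTS7 the difference between the lines depended on the peptide. ADAMTS1 was higher in MDA-MB-231 by 71.0-fold in GFOGER (log2 6.15, SE 0.264, adjusted p = 1.96e-14) and by 10.1-fold in IKVAV (log2 3.33, SE 0.312, adjusted p = 6.98e-09). ADAMTS6 was higher by 3.37-fold in GFOGER (log2 1.75, SE 0.222, adjusted p = 4.82e-07), while in IKVAV the lines differed by 0.03 on the log2 scale (SE 0.274, adjusted p = 0.916, with 2 SE reaching from -0.51 to 0.58). ADAMTS7 stood lower in MDA-MB-231 in GFOGER (log2 -0.58, SE 0.292, adjusted p = 0.0759) and higher in IKVAV (log2 0.96, SE 0.304, adjusted p = 0.00761). Only the second passed the adjusted p, at less than 2-fold, so neither was called. In GFOGER 9 members were called and in IKVAV 8, the 5 members that passed the filter only through MDA-MB-231 among them, where 46.9% and 45.9% of all genes were called.

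**Figure D4:**
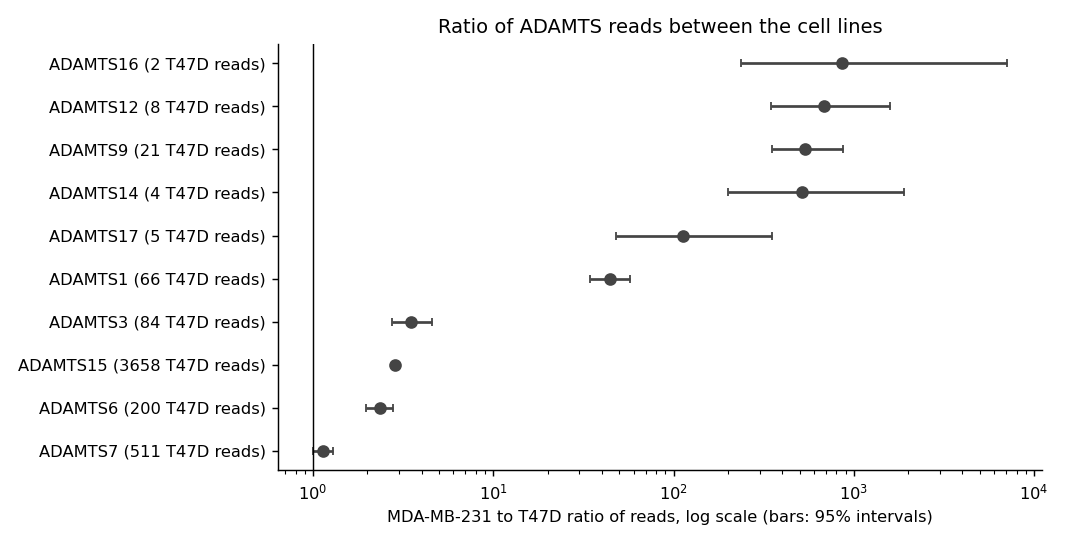
Ratio of summed reads between MDA-MB-231 and T47D for each member on a log axis, scaled by normalized library size, with 95% intervals for counting error and the number of T47D reads beside each name. The 5 highest members exceed a ratio of 100, all with at most 21 T47D reads, and ADAMTS7 lies at 1.13. Reads are pooled over both peptides with unequal numbers of MDA-MB-231 libraries, and ADAMTS1 lies at 44.2 where its fitted difference was 26.7-fold.

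Genes with patterns most like those of 4 called members were found by the smallest root mean square difference of centred log2 CPM over the 11 libraries. For ADAMTS14 they were LGR5, a stem cell receptor of the WNT pathway, and FPR1, a formyl peptide receptor, at 0.38 and 0.39, where the median over all genes was 3.40 for this member. For ADAMTS1 they were PDCD1LG2, a ligand of the checkpoint receptor PD-1, and FAT3, a large cadherin, at 0.46 and 0.48 with a median of 2.67. Their fitted log2 differences between the lines were larger, 7.87 and 7.19 against 4.74 for ADAMTS1. The prior count of 2 narrows such differences where reads are few. The closest to ADAMTS6 were SNHG3 and LOC375295, at 0.24 and 0.24 with a median of 0.913, and the closest to ADAMTS7 were ZNF169 and FAM89B, at 0.19 and 0.23 with a median of 0.807. The medians of ADAMTS6 and ADAMTS7 were lower than those of ADAMTS14 and ADAMTS1, so closeness cannot be compared between members. No gene named here is an ADAMTS gene. The 11 libraries share 2 lines and 2 peptides, so they are not independent points.

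Genes around the proteases were taken from fixed lists, and in MDA-MB-231 they are set against the 9.57% of all genes called. Of 8 inhibitor and clearance genes 4 fell in GFOGER and 1 rose. TIMP3 fell (log2 -1.25, SE 0.0773, adjusted p = 3.43e-09), as did TIMP1 (-1.06), PAPLN (-1.82) and A2M (-2.67), while TIMP4 rose (1.00, adjusted p = 0.0279). A2M had 1 to 4 reads in the GFOGER libraries and 16 and 17 in the IKVAV libraries. It passed the filter only through IKVAV, which fixed its direction. LRP1, the clearance receptor, was lower by less than 2-fold (-0.48, adjusted p = 0.00113). All 8 were called higher in MDA-MB-231 than in T47D, as were 23.7% of all genes, but TIMP4, A2M and RECK had at most 2 reads in any T47D library and passed the filter only through MDA-MB-231.

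Of 7 proprotein convertases 5 were tested and 2 fell in GFOGER, PCSK6 (-2.21, adjusted p = 0.00147) and PCSK5 (-1.12, adjusted p = 0.0424), while FURIN did not pass (0.26, adjusted p = 0.0954). PCSK6 had 5 to 6 reads in the GFOGER libraries and 19 and 31 in the IKVAV libraries. It passed the filter only through IKVAV, which fixed its direction. Of 6 procollagen genes 4 were tested and COL1A2 fell (-1.12, adjusted p = 0.00205). Of 16 other matrix substrates and partners 13 were tested, with 4 higher and 2 lower. FN1, which encodes fibronectin, fell (-3.04, SE 0.0696, adjusted p = 1.52e-14), SEMA3C fell (-1.43), and CCBE1 (2.37), RELN (2.18), FBN2 (1.40) and FBLN1 (1.25) rose. Among the ADAMTS-like proteins, which lack the catalytic part, ADAMTSL1 (1.25) and THSD4 (1.12) rose and ADAMTSL2 (-1.57) fell among 5 tested. ADAMTSL2 had 4 to 14 reads in the GFOGER libraries and 22 and 28 in the IKVAV libraries. It too passed the filter only through IKVAV, which fixed its direction.

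No gene was called among 2 proteoglycan substrates tested of 7 listed, nor among the 4 genes that glycosylate thrombospondin repeats. In T47D no gene of these lists was called, where 0.022% of all genes were. In the comparison of the lines, BCAN, BGN and VCAN, which encode proteoglycan substrates, were called lower in MDA-MB-231 among 4 tested. Of all genes 22.6% were called lower. SDC4, also tested, was higher in MDA-MB-231 by less than 2-fold (log2 0.37). BCAN had 5 to 10 reads in the MDA-MB-231 libraries and BGN had 0. Both passed the filter only through T47D, which fixed their direction. Of the 4 glycosylation genes 2 were called higher in MDA-MB-231, where 23.7% of all genes were. DPY19L1 and DPY19L3 were higher by less than 2-fold (log2 0.84 and 0.88).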

How the data were processed

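Stranded poly(A) libraries from 12 labelled samples were sequenced by the authors, and 11 have values. Per the labels and methods the authors trimmed reads with Trim Galore 0.4.4, aligned them to hg19 with TopHat2 2.1.0 and counted them with HTSeq 0.6.1p1, and the annotation and strand setting are not given in the sources used here. The deposited table holds raw counts per gene and RPKM values made by the authors. The RPKM imply library totals of 2 sizes and were used only for an alternative. It also holds the authors' gene lengths.

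Of 24656 entries 1288 repeated a symbol, and the entry with the most counts was kept. Counts were tested with edgeR 4.0.16 (R 4.3.3), using TMM, filterByExpr (minimum count 10, total 15) and the quasi-likelihood test, within each line for the peptides and over the 4 conditions for the lines and the interaction. A gene was called at a Benjamini-Hochberg adjusted p under 0.05 with more than 2-fold change. The SE is the log2 fold change over the square root of F. Intervals cover 2 SE, or counting error at 95%.

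All 10 members were named. Other family and pathway genes came from fixed lists, by whether they were called and by size, and alike genes were the 2 nearest to each called member (prior count 2), with those of ADAMTS16 not reported here. Members and lists were chosen with earlier results of these data known. Alternatives were DESeq2 1.42.0, other scalings, filters and terms, and leaving out each library. The code was tested on simulated data.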

Additional observations from a re-analysis of the deposited data

Results flagged for a closer look

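The effect of the peptide differed between the lines, by the test of the difference itself, for 3 members. For ADAMTS1 the interaction was 2.82 on the log2 scale (SE 0.508, adjusted p = 0.000646), from 2.55 in MDA-MB-231 and -0.26 in T47D. Without T47D IKVAV replicate 3 it was 2.13 (adjusted p = 0.0125), from a T47D value of 0.417, and over all alternatives it ranged from 2.13 to 3.28 with adjusted p up to 0.0256. For ADAMTS6 it was 1.72 (SE 0.354, adjusted p = 0.00199), from 1.51 and -0.20. For ADAMTS7 it was -1.54 (SE 0.421, adjusted p = 0.0137), from -1.34 and 0.21, and without MDA-MB-231 IKVAV replicate 2 it no longer passed. No group held more than 3 libraries, so single libraries far from their group were not looked for by a formal rule.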

How the results depend on the processing

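Under the adjusted p alone, the members called between the peptides in MDA-MB-231 went from 5 to 8. With the 2-fold limit inside the test, the members called in the interaction went from 3 to 1 (ADAMTS1). Leaving out each library in turn gave 4 to 5 called members in MDA-MB-231, 0 in T47D, 8 to 9 between the lines and 2 to 3 in the interaction. Replicate numbers did not pair the libraries (correlations of -0.126 to 0.0604 between same-numbered libraries), and a replicate block gave 5, 0, 8 and 3. DESeq2, upper-quartile scaling, library size alone and no filter gave the same 4 counts. With the implied library totals as a term the counts for the lines rose to 10 members in GFOGER and 9 in IKVAV, from 9 and 8. In GFOGER all MDA-MB-231 libraries had high implied totals and all T47D libraries low ones. There the term and the line cannot be told apart, and the size of the term came from the IKVAV libraries alone. ADAMTS7 crossed the 2-fold limit within GFOGER without MDA-MB-231 GFOGER replicate 3, and within IKVAV without MDA-MB-231 IKVAV replicate 1 or T47D IKVAV replicate 1. Over all genes, the 3 calls between the peptides in T47D became 8 with DESeq2 and 20 with no filter. They became 0 to 94 when each library was left out. No count is given with the implied totals, as that term set T47D GFOGER against IKVAV replicate 3 alone. The 983 interaction calls became 132 with the limit inside the test.

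Of the single-gene values, only uncalled ones changed sign. ADAMTS17 in MDA-MB-231 was -0.004 with the replicate block, -0.134 with the implied totals as a term, and -0.13 to 0.255 when each library was left out. Only IKVAV replicate 1 had a low implied total in MDA-MB-231, so that term set GFOGER against IKVAV replicate 2 alone. In T47D, with the implied totals, ADAMTS3 was 0.298, ADAMTS6 0.13 and ADAMTS1 -1.026. All 3 T47D GFOGER libraries and IKVAV replicate 3 had low implied totals, so this term set GFOGER against IKVAV replicate 3 alone. Leaving out each library gave -0.39 to 0.413 for ADAMTS3, -0.353 to 0.03 for ADAMTS6 and -0.725 to 0.417 for ADAMTS1. The sign turned for ADAMTS3 and ADAMTS6 without IKVAV replicate 2, and for ADAMTS1 without IKVAV replicate 3 (0.417) or GFOGER replicate 1 (0.002). ADAMTS7 between the lines was -0.084 with the implied totals and -0.027 to 0.352 when each library was left out, the lowest without MDA-MB-231 GFOGER replicate 3. The causes were not tested. In T47D 5 members had 2 to 21 reads in all at total counts of 14338238 to 17089379, and MDA-MB-231 in IKVAV had 2 libraries.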

Other observations

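ADAMTS4, an aggrecan-cleaving gene that was not among the 10 members, had 43 to 52 reads in the T47D GFOGER libraries and 20 to 23 in the T47D IKVAV libraries. The groups did not overlap, which held for 16% of all genes tested in T47D. Of the 4 ADAMTS genes outside the members that were tested there, ADAMTS4 had the largest absolute log2 fold change. Its log2 fold change was 1.04 (SE 0.256, unadjusted p = 0.00123), and it failed the correction over all genes (edgeR, adjusted p = 0.191, higher in 3 of 3 GFOGER libraries). It was at 0 reads in all 5 MDA-MB-231 libraries. A single library at 0, taken alone, allows up to 3 reads, and the 5 together allow fewer in each.

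ADAMTS15 and ADAMTS8 lie 20.3 kb apart on chromosome 11, and ADAMTS1 and ADAMTS5 lie 72.5 kb apart on chromosome 21. The neighbours ADAMTS8 and ADAMTS5 had at most 9 and 2 reads in any library, while ADAMTS15 had 496 to 1953 and ADAMTS1 3 to 785.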
